A study of Mus musculus with 72 samples.

Results

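Livers of female B6C3F1 mice given tertiary butyl alcohol (TBA) at 40 mg/mL in the drinking water were set against livers of mice given 0 mg/mL, and the effect after 28 d was compared with the effect after 14 d. The quantity of interest is the difference of 2 differences: 40 against 0 mg/mL at 28 d, minus 40 against 0 mg/mL at 14 d. It was formed for every probe with enough counts, 17050 of the 30146 probes in the count table (11784 gene symbols). The comparison rests on 35 of the 72 libraries of the series: 9 at 40 mg/mL for 28 d, 9 at 0 mg/mL for 28 d, 8 at 40 mg/mL for 14 d and 9 at 0 mg/mL for 14 d. Replicate 5 at 40 mg/mL for 14 d held 10796 counts, under the limit of 100000, and was left out.

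Each library is 1 mouse, 9 to 11 weeks old and housed singly. The mice carried no engineered allele, the strain is a first-generation hybrid of C57BL/6 and C3H parents, and the animals killed at 28 d are not those killed at 14 d. RNA came from sections of formalin-fixed, paraffin-embedded liver and was measured with TempO-Seq, in which pairs of short detector oligos are ligated on a target transcript and then amplified and sequenced. The study asks about an anti-thyroid mode of action, in which induced liver enzymes clear thyroid hormone faster and the thyroid is stimulated in turn. Values below are CPM, counts scaled to a common library total with TMM factors, given as lowest, median and highest animal. Changes are log2 fold changes from edgeR's quasi-likelihood test with their standard error, and a change was called at a Benjamini-Hochberg adjusted p below 0.05.

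Several liver programmes bear on a response that can last or fade. The nuclear receptors CAR and PXR switch on cytochrome P450, glucuronosyltransferase and sulfotransferase genes while an inducer is present, and CAR activators are also known for an early, passing wave of hepatocyte division. Hepatocytes secrete most plasma proteins, among them complement and clotting factors, the carriers of thyroid hormone and, in mice, the major urinary proteins, whose genes follow the pattern of growth hormone secretion. Thyroid hormone in plasma is bound by thyroxine-binding globulin (Serpina7), transthyretin (Ttr) and albumin (Alb).

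Library totals ran from 7.77 to 12.4 M counts. The 8 hepatocyte markers summed to 20700, 35800 and 52500 CPM at 40 mg/mL for 28 d and 18100, 46800 and 60100 CPM at 0 mg/mL for 28 d. They summed to 14900, 23500 and 44700 CPM at 40 mg/mL for 14 d and 39900, 48000 and 56600 CPM at 0 mg/mL for 14 d. Of the 8, 4 fell at 14 d and 0 passed at 28 d. Sinusoidal endothelial markers reached at most 745 CPM, stellate cell markers 668 CPM, Kupffer cell markers 382 CPM and pancreatic acinar markers 7.27 CPM in any of these libraries. Each lay below the hepatocyte sums of all 4 groups, but sums of different marker sets do not give shares of RNA. Of the endothelial and stellate markers, Oit3, Tek, Ecm1 and Reln were called at 14 d, all lower. In these bulk samples fewer cells of a type and less RNA per cell cannot be told apart. The TMM scaling factor, which is high where a few abundant probes take a low share of the counts, stood out in 7 libraries. It was 1.35 and 1.40 in replicates 6 and 7 of the 28 d group at 40 mg/mL, 1.37 in control replicate 3 of the same duration, and 1.55, 1.39, 1.58 and 1.3 in replicates 1, 2, 7 and 8 of the 14 d group at 40 mg/mL. The 20 most abundant probes took 9.64% to 14.3% of their counts, against 16.5% to 24.6% in the other libraries. Many list counts below are also given without them, but log2 changes of single genes are not.

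The response to 40 mg/mL was broad at 14 d and sparse at 28 d, but no single probe passed the test of the difference between the durations. At 28 d, 1 of the 17050 probes was called (0.00587%), Serpina7, and 1078 had an unadjusted p below 0.05. At 14 d, 1111 probes (6.52%) of 933 symbols were called, 484 higher (2.84%) and 627 lower (3.68%) at 40 mg/mL. For the difference itself, edgeR called 0 probes (0%), with 1081 at an unadjusted p below 0.05 (581 higher and 500 lower) and a smallest adjusted p of 0.222. DESeq2 called 0 as well (1198 at an unadjusted p below 0.05, smallest adjusted p 0.0769), and limma with voom 0 (1208 unadjusted). By the calls, then, 0 changes persisted, 0 faded and 0 appeared late, 1111 were called at 14 d with the difference between durations not shown, and 1 was called at 28 d in the same state. A call at 14 d alone is not a faded change: the median standard error of the difference was 0.365 on the log2 scale, so a difference has to be large to pass.

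The 14 d count rests partly on 2 animals: without replicate 1 or without replicate 7 at 40 mg/mL for 14 d it was 584 in each case. It was 135 without the 7 libraries of high scaling factor, and 555 (356 higher and 199 lower) with the scaling factor as a covariate, which turns the split of 484 higher and 627 lower. In limma it was 696 (185 higher and 511 lower). The 28 d count moved the other way, to 218 in limma, of which 78 were also called in the same direction at 14 d, and to 66 with the covariate, of which 29 were.

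Most probes called at 14 d pointed the same way at 28 d, at a smaller size. Of the 484 higher at 14 d, 386 (79.8%) had a positive change at 28 d, and 125 (25.8%) kept at least 50% of their 14 d log2 change. Their median change was 0.187 at 28 d and 0.792 at 14 d. Of the 627 lower at 14 d, 555 (88.5%) had a negative change at 28 d and 116 (18.5%) kept at least 50%, with medians of -0.214 at 28 d and -0.755 at 14 d. Over all probes tested, 62.5% shared the sign and 38.2% kept at least 50% of their 14 d log2 change, a share to hold beside later list counts. Most of these probes had small changes at 14 d, with a median absolute log2 change of 0.267. Probes picked at 14 d have their 14 d change overstated by the picking, which shrinks the 28 d value by comparison. Picked the other way, the 100 probes of smallest p at 28 d held 95 with the same sign at 14 d and 67 with at least 50% of the size, against 93 and 14 at 28 d for the 100 probes of smallest p at 14 d. No animal is shared between the 2 durations.

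**Figure D1:**
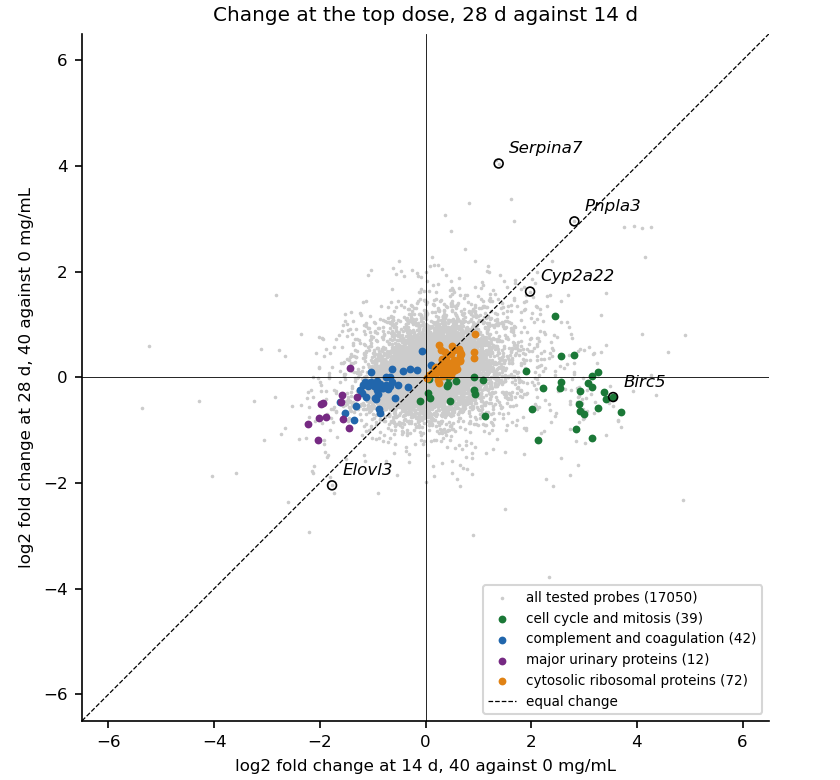
Log2 fold change at 40 against 0 mg/mL at 28 d (y axis) over that at 14 d (x axis), 1 point per tested probe in grey, with 4 gene lists in colour, 5 genes ringed and a dashed line of equal change. Cell cycle genes lie far right and near 0 on the y axis (median 2.45 at 14 d and -0.23 at 28 d), Pnpla3, Cyp2a22 and Elovl3 lie near the dashed line, Serpina7 lies above it, and 2 probes fall outside the plotted range.

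Within each dose the durations were also compared directly. Between 28 d and 14 d at 40 mg/mL, 253 probes (1.48%) of 221 symbols were called, 110 higher (0.645%) and 143 lower (0.839%) at 28 d. At 0 mg/mL the same contrast called 0 probes in edgeR, with 516 at an unadjusted p below 0.05 and a smallest adjusted p of 0.433. These contrasts compare durations within a dose and hold the effect of age and of time on test as well. The count at 40 mg/mL is sensitive to single animals. Without a single library at 40 mg/mL for 14 d it was 111 (replicate 1), 502 (replicate 3), 421 (replicate 4), 459 (replicate 6) and 39 (replicate 7), and without a single library at 40 mg/mL for 28 d it was 154 (replicate 2), 158 (replicate 3), 152 (replicate 5), 382 (replicate 6), 402 (replicate 7) and 147 (replicate 9). It was 4 without the 7 libraries of high scaling factor, and 13 in limma.

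Genes of cell division were high in some dosed livers at 14 d, with none called at 28 d. Of 39 cell cycle genes tested, 16 rose and 0 fell at 14 d, while 0 passed in either direction at 28 d. Over all 17050 probes 2.84% rose and 3.68% fell at 14 d, shares to hold beside this and later list counts. The median log2 change was -0.23 at 28 d and 2.45 at 14 d (-2.41 for the difference), against 0.02, 0.05 and -0.02 over all 11784 symbols. All 39 differences were negative, 22 of them at an unadjusted p below 0.05, and 19 of the 39 were lower at 28 d than at 14 d within the dosed livers. Of the 16 called at 14 d, 2 had a positive change at 28 d and 0 kept at least 50% of it.

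The summed level of the 39 genes showed which animals carried the 14 d change. At 40 mg/mL for 28 d it was 112, 142.6 and 225 CPM, against 142, 163.8 and 210.3 CPM at 0 mg/mL for 28 d. At 40 mg/mL for 14 d it was 121.7 in replicate 9, 136.2 in replicate 8, 142 in replicate 2, 205.2 in replicate 3, 418.7 in replicate 4, 604.1 in replicate 6, 695.1 in replicate 1 and 1609 in replicate 7, against 151.7, 181.6 and 261.9 CPM at 0 mg/mL for 14 d. Replicates 1, 4, 6 and 7 lay above every control and the other 4 lay within or below the controls, whereas at 28 d 4 of 9 dosed livers lay below every control, 1 above every control and the other 4 among them. Replicate 7 decides much of the counts: without it 2 of the 39 were called at 14 d, and 6 in place of 19 between 28 d and 14 d at 40 mg/mL. Without the 7 libraries of high scaling factor 2 were called, without both replicates 1 and 7 of the dosed 14 d group and control replicate 3 of 28 d 0 were, with the covariate 1 was, and in limma 2 were. Of the 4 erythroid markers tested, 1 rose at 14 d, the alpha globin gene Hba-a2 (1.56 ± 0.48, adjusted p = 0.0348), and 0 passed at 28 d. The 4 summed to 44.4, 64.5 and 165 CPM at 40 mg/mL for 28 d and 40.7, 51.1 and 77.5 CPM at 0 mg/mL for 28 d, beside 45.7, 79.2 and 191 CPM at 40 mg/mL for 14 d and 30.3, 45 and 126 CPM at 0 mg/mL for 14 d. The part of erythroid cells in the cell cycle values was not tested.

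Promoters of 3 division genes are shown because their genes moved together at 14 d: Cdk1, the kinase that drives entry into mitosis, Top2a, the topoisomerase that untangles chromosomes, and Birc5 (survivin), which places the chromosomal passenger complex. Each line holds the 250 bases before the gene's start from RefSeq, GRCm38.p6, written 5′ to 3′ on the gene's strand. They are chr10:69352913-69353162 (minus strand) for Cdk1, chr11:99024190-99024439 (minus strand) for Top2a and chr11:117848987-117849236 (plus strand) for Birc5. Capitals mark the CCAAT box, CCAAT or ATTGG on the other strand, which binds NF-Y, and an element of the cell cycle homology region type, TTTGAA or TTCAAA on the other strand; these motifs do not overlap each other.
Cdk1: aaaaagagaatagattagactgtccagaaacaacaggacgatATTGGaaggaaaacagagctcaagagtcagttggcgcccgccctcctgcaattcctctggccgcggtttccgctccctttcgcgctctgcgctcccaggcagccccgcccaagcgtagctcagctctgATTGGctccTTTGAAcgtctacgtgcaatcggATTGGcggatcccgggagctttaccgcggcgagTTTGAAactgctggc
Top2a: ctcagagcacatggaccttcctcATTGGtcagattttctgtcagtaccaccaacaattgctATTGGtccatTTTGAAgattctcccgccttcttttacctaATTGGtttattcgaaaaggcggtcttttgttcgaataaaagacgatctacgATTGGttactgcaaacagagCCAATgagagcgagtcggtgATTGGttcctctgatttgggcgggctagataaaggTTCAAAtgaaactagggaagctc
Birc5: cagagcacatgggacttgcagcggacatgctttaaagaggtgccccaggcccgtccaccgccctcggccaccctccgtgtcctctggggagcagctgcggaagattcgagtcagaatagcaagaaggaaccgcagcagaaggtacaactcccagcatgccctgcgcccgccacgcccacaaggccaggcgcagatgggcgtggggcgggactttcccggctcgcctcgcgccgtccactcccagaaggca
The Cdk1 window holds 3 CCAAT boxes and 2 of the second element, the Top2a window 6 and 2, and the Birc5 window 0 and 0. Of the 16 division genes called at 14 d, 13 had a promoter in the table, and 12 of these (92.3%) held a CCAAT box and 4 (30.8%) the second element. Of the 23 not called, 19 had one, and 14 (73.7%) and 4 (21.1%) held them. Among the windows of all 27025 genes, 34.2% held a CCAAT box, 16.3% the second element and 5.67% both. A match describes letters in a window, and no binding was measured.

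Birc5 had the smallest p for the difference among the division genes. It was at 0, 0.997 and 2.36 CPM at 40 mg/mL for 28 d and 0.245, 1.42 and 3.03 CPM at 0 mg/mL for 28 d. At 14 d it was at 1.08, 6.03 and 79.8 CPM at 40 mg/mL and 0, 1.14 and 3.92 CPM at 0 mg/mL. At 28 d the groups overlapped, and at 14 d 4 of 8 dosed livers lay above every control. The log2 change was -0.37 ± 0.65 at 28 d (adjusted p = 0.981) and 3.55 ± 0.64 at 14 d (adjusted p = 0.000207). The difference of -3.92 (95% interval -5.72 to -2.13) had an unadjusted edgeR p of 4.62e-05 and an adjusted p of 0.222, and within dosed livers Birc5 was lower at 28 d than at 14 d, with a log2 change of -3.98 (adjusted p = 0.000367). Without replicate 7 at 40 mg/mL for 14 d the 14 d change was 2.44 and the difference -2.82.

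Cdk1, which stood at 0.143, 0.483 and 2.63 CPM at 40 mg/mL for 28 d and 0.478, 1.06 and 2.06 CPM at 0 mg/mL for 28 d, followed the same course. At 14 d it was at 0.712, 5.46 and 79.9 CPM at 40 mg/mL and 0.223, 1.91 and 3.81 CPM at 0 mg/mL, with 5 of 8 dosed livers above every control. Its change was -0.65 ± 0.67 at 28 d and 2.92 ± 0.62 at 14 d (adjusted p = 0.0018). The 14 d change was 1.49 without replicate 7 (adjusted p = 0.114). Cyclin A2 (Ccna2), the partner of cyclin-dependent kinases in S phase, and Top2a behaved likewise: Ccna2 changed by 3.27 ± 0.75 at 14 d (adjusted p = 0.0038), against a value of -0.58 ± 0.77 at 28 d. Without replicate 7 its 14 d value was 2.23 (adjusted p = 0.0658). Top2a was at 0, 0.73 and 2.81 CPM at 40 mg/mL for 28 d and 0.571, 1.82 and 2.54 CPM at 0 mg/mL for 28 d, and at 14 d it was at 0, 7.24 and 82.7 CPM at 40 mg/mL and 1.12, 2.59 and 5.23 CPM at 0 mg/mL. Its 14 d groups overlapped at the low end, where 3 dosed livers lay below every control while 4 lay above every control. The Top2a change was -0.69 ± 0.82 at 28 d and 2.99 ± 0.78 at 14 d (adjusted p = 0.012), and its 14 d value was 2.12 without replicate 7 (adjusted p = 0.115).

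Among genes of DNA synthesis and packaging, Rrm1, Rrm2, H2bc8, H3c13 and Pole were called at 14 d. Tyms, Pcna, Mcm2, Mcm3, Mcm5, Mcm6, Mcm7 and Gins1 were not (smallest adjusted p 0.0714, Mcm6). Rrm1 changed by 0.57 ± 0.16 at 14 d (adjusted p = 0.0152) and -0.07 ± 0.15 at 28 d. The 14 d call of the histone gene H3c13 (1.12) ended without replicate 7 at 40 mg/mL (0.82, adjusted p = 0.0735). Rrm2, the regulated subunit of ribonucleotide reductase, changed by 1.91 ± 0.41 at 14 d (adjusted p = 0.00186), beside 0.11 ± 0.41 at 28 d. The replication-dependent histone gene H2bc8 was at 3.28, 7.45 and 12.4 CPM at 40 mg/mL for 28 d and 5.38, 8.13 and 12.2 CPM at 0 mg/mL for 28 d. At 14 d it was at 5.66, 18.3 and 90.7 CPM at 40 mg/mL and 7.28, 10.3 and 12.8 CPM at 0 mg/mL, a rise of 1.51 ± 0.32 (adjusted p = 0.0018) with 5 of 8 dosed livers above and 3 below every control. Histone genes of 1 class are near copies of each other, so H2bc8 reads may belong to several. Pole, the catalytic subunit of the leading-strand DNA polymerase, had values on both sides of 0, -0.74 ± 0.33 at 28 d (adjusted p = 0.72, 7 of 9 dosed livers below every control) and 1.07 ± 0.33 at 14 d (adjusted p = 0.0326). Its 14 d call ended without replicate 1 or 7 at 40 mg/mL or replicate 1, 2, 4 or 6 at 0 mg/mL (0.79 to 1.03, highest adjusted p 0.196).

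**Figure D2:**
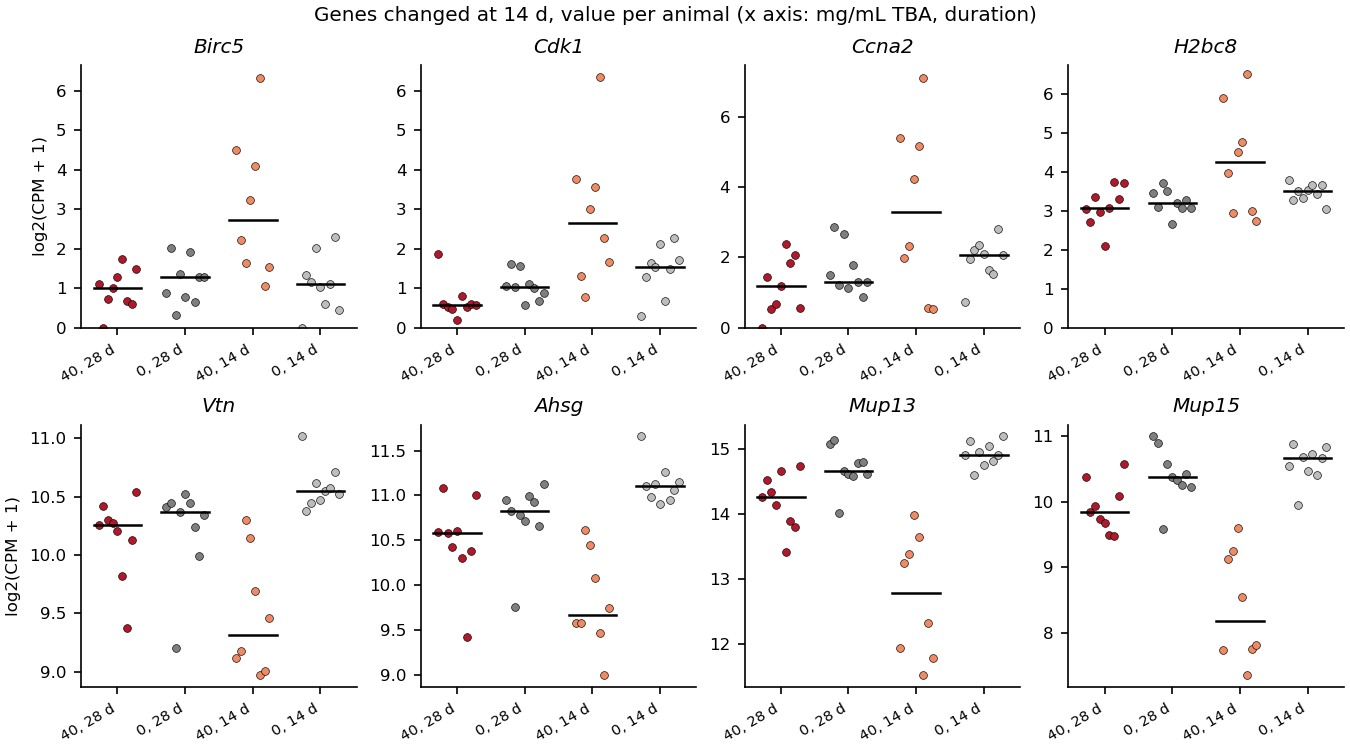
log2(CPM + 1) of 8 genes called at 14 d, 1 point per animal, with the groups at 40 and 0 mg/mL for 28 d and then at 40 and 0 mg/mL for 14 d from left to right and a bar at each median. Birc5 reached 79.8 CPM in 1 dosed liver at 14 d and at most 2.36 CPM in dosed livers at 28 d, while dosed livers at 14 d lay below every control for Vtn, Ahsg, Mup13 and Mup15.

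Secreted plasma proteins moved the other way, low in dosed livers at 14 d and nearer to the controls at 28 d, but not in the same animals throughout. Of 42 complement and coagulation genes tested, 0 rose and 27 fell at 14 d, and 0 passed at 28 d. The median log2 change was -0.16 at 28 d and -0.91 at 14 d, and the difference was positive for all 42 (median 0.68), 22 of them at an unadjusted p below 0.05. Of the 27, 26 had a negative change at 28 d and 3 kept at least 50% of it. The 42 genes summed to 16740, 41760 and 56620 CPM at 40 mg/mL for 28 d and 14530, 48450 and 63370 CPM at 0 mg/mL for 28 d, and to 10380, 17300 and 45660 CPM at 40 mg/mL for 14 d and 45230, 49540 and 57390 CPM at 0 mg/mL for 14 d. The 14 d groups barely touched, and the 28 d groups overlapped, with a control (replicate 3) as the lowest animal. The next lowest 28 d control, replicate 8, held 42260 CPM. Below it lay dosed 28 d replicates 1, 6, 7, 8 and 9, with 34700, 22350, 16740, 34270 and 41760 CPM. Of the dosed 14 d livers with high cell cycle sums, replicates 1 and 7 held 11360 and 10380 CPM here, and replicates 4 and 6 held 39300 and 38150 CPM. Of the other dosed 14 d livers, replicates 2, 8 and 9 held 14870, 13080 and 19730 CPM and replicate 3 held 45660 CPM. The count at 14 d was 6 without the 7 libraries of high scaling factor (difference 0.28), 7 with the covariate, and 19 to 35 with single libraries left out, where the 19 came without replicate 1 at 40 mg/mL for 14 d. Depressed plasma protein counts and a high scaling factor move together here, and the part of the one in the other was not tested.

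Ahsg (fetuin-A), an abundant plasma inhibitor of calcification, was at 687, 1530 and 2170 CPM at 40 mg/mL for 28 d and 863, 1820 and 2230 CPM at 0 mg/mL for 28 d. It was at 511, 812 and 1570 CPM at 40 mg/mL for 14 d and 1920, 2200 and 3230 CPM at 0 mg/mL for 14 d. All 8 dosed livers lay below every control at 14 d, and at 28 d 1 of 9 did. The lowest 28 d control for Ahsg, at 863 CPM, was replicate 3, which stood apart from the other controls. The change was -0.24 ± 0.18 at 28 d (adjusted p = 0.925) and -1.25 ± 0.19 at 14 d (adjusted p = 1.47e-05), a difference of 1.01 (0.50 to 1.52, adjusted p = 0.222).

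Vtn (vitronectin), which binds integrins and restrains the terminal complement complex, was at 664, 1220 and 1490 CPM at 40 mg/mL for 28 d and 588, 1320 and 1470 CPM at 0 mg/mL for 28 d. It was at 501, 641 and 1260 CPM at 40 mg/mL for 14 d and 1330, 1500 and 2070 CPM at 0 mg/mL for 14 d. The 14 d groups did not meet, and the 28 d groups covered the same range. Its change was -0.08 ± 0.16 at 28 d and -1.03 ± 0.17 at 14 d (adjusted p = 5.25e-05), and its rise between 14 and 28 d within dosed livers, 0.61, was called (adjusted p = 0.0403). That last call ended without replicate 1, 2, 7, 8 or 9 of the 14 d group or replicate 1, 2, 3, 4, 5, 8 or 9 of the 28 d group, with log2 changes of 0.55 to 0.62 and a highest adjusted p of 0.154. C8g, a chain of complement component 8, gave -0.17 ± 0.15 at 28 d and -0.98 ± 0.16 at 14 d (adjusted p = 3.09e-05, 8 of 8 dosed livers below every control). F5, coagulation factor V, gave 0.16 ± 0.15 at 28 d and -0.64 ± 0.15 at 14 d (adjusted p = 0.0056).

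Acute phase proteins, the plasma proteins whose synthesis inflammation adjusts, followed: 0 of 32 rose and 7 fell at 14 d, with medians of 0.10 at 28 d and -0.58 at 14 d. The 14 d count was 14 without replicate 3 and 11 without replicate 4 at 40 mg/mL for 14 d, 0 without the 7 libraries of high scaling factor, and 1 with the covariate. Hpx (hemopexin), which binds free heme, stood at 627, 1500 and 1970 CPM at 40 mg/mL for 28 d and 598, 1590 and 1890 CPM at 0 mg/mL for 28 d. It stood at 391, 658 and 1860 CPM at 40 mg/mL for 14 d and 1490, 1770 and 2190 CPM at 0 mg/mL for 14 d, a log2 change of -1.08 ± 0.26 (adjusted p = 0.00477), with 7 of 8 dosed livers below every control. Its 28 d value was -0.10 ± 0.24.

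Major urinary protein genes fell at 14 d and had mostly negative, uncalled values at 28 d. Of 12 tested, 11 fell at 14 d and 0 passed at 28 d, with median changes of -0.62 at 28 d and -1.73 at 14 d. Within dosed livers 7 of the 12 were higher at 28 d than at 14 d. Of the 11, 10 had a negative change at 28 d, and 2 kept at least 50% of the 14 d change. These genes are close copies in 1 cluster, so a probe may read several of them and the names below are uncertain. Their sum was 24930, 41570 and 54210 CPM at 40 mg/mL for 28 d and 35650, 55060 and 71600 CPM at 0 mg/mL for 28 d, beside 7784, 16335 and 32100 CPM at 40 mg/mL for 14 d and 48460, 62170 and 71340 CPM at 0 mg/mL for 14 d. Dosed and control livers were fully apart at 14 d and overlapped at 28 d. The lowest 28 d control, at 35650 CPM, was replicate 3, and the next, replicate 5, held 50700 CPM. Only dosed replicate 9, at 54210 CPM, lay above replicate 5. Without the 7 libraries of high scaling factor 6 were called at 14 d, and 10 without the 3 libraries at 14 and 28 d named above for the cell cycle sums. The count of 7 between 28 d and 14 d at 40 mg/mL was 3, 2, 4 and 4 without replicates 1, 7, 8 and 9 of the 14 d group, 4 without replicate 9 of the 28 d group, 1 with the covariate and 0 without the 7 libraries or the 3.

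Mup15 was at 714, 913 and 1520 CPM at 40 mg/mL for 28 d and 769, 1320 and 2030 CPM at 0 mg/mL for 28 d, and at 164, 300 and 776 CPM at 40 mg/mL for 14 d and 986, 1610 and 1880 CPM at 0 mg/mL for 14 d. All 8 dosed livers at 14 d were below every control, and 2 of 9 were at 28 d. The change was -0.50 ± 0.26 at 28 d (adjusted p = 0.8) and -1.97 ± 0.28 at 14 d (adjusted p = 6.19e-06), and dosed livers were higher by 1.34 at 28 d than at 14 d (adjusted p = 0.00462). Mup13, with a dosed median of 19800 CPM at 28 d and 7450 CPM at 14 d, gave -0.48 ± 0.28 at 28 d and -1.95 ± 0.30 at 14 d (adjusted p = 1.96e-05). Mup12 had the largest difference of the 3, 1.61 (0.80 to 2.42), between 0.17 ± 0.28 at 28 d and -1.44 ± 0.30 at 14 d (adjusted p = 0.00134).

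Genes with male-biased liver expression, which growth hormone pulses sustain, fell in part at 14 d. Of 12 in the male-biased list, 8 fell at 14 d and 0 passed at 28 d. Of these 8, 3 are the urinary protein genes Mup7, Mup20 and Mup21 counted above. C8a is also counted above among the complement genes, and Ugt2b38 and Elovl3 are counted again in lists below. All 8 had a negative value at 28 d, and 3 kept at least 50% of the change. The count at 14 d was 4 with the covariate and 4 without the 7 libraries of high scaling factor. Medians were -0.83 at 28 d and -1.72 at 14 d. Cyp7b1, an oxysterol and steroid hydroxylase, was at 2.89, 7.41 and 16.5 CPM at 40 mg/mL for 28 d and 9.71, 15.7 and 31.5 CPM at 0 mg/mL for 28 d. It was at 0.895, 4.96 and 9.15 CPM at 40 mg/mL for 14 d and 5.51, 16.5 and 23.8 CPM at 0 mg/mL for 14 d. Most dosed livers lay below every control, 7 of 9 at 28 d and 5 of 8 at 14 d, with values of -1.13 ± 0.32 at 28 d (adjusted p = 0.238) and -1.68 ± 0.33 at 14 d (adjusted p = 0.00074). Of 20 female-biased genes 2 rose (Acot3 and Cyp17a1) and 2 fell (Cyp2c69 and Cyp3a41a) at 14 d, where 2.84% of all probes rose and 3.68% fell. Among these, Cyp2c69, a P450, fell by 1.69 at 14 d (adjusted p = 0.00612) and was at -0.30 ± 0.38 at 28 d. The count of 2 that rose was 1 without replicate 9 at 40 mg/mL or replicate 4 or 5 at 0 mg/mL for 14 d, and the count of 2 that fell was 1 without any single 14 d library other than replicate 4 at 40 mg/mL and replicates 3, 4 and 7 at 0 mg/mL.

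Enzymes that mark the zones of the liver lobule were in part lower at 14 d. Cyp2f2, the P450 that marks periportal hepatocytes, was at 115, 229 and 366 CPM at 40 mg/mL for 28 d and 90.5, 309 and 369 CPM at 0 mg/mL for 28 d. It was at 52.6, 115 and 238 CPM at 40 mg/mL for 14 d and 271, 320 and 372 CPM at 0 mg/mL for 14 d. The 14 d groups did not meet and the 28 d groups overlapped. The lowest 28 d control, at 90.5 CPM, was replicate 3, a library of high scaling factor that stood apart from the other controls. The Cyp2f2 changes were -0.35 ± 0.23 at 28 d and -1.41 ± 0.24 at 14 d (adjusted p = 0.00012). Of 22 periportal genes 7 fell at 14 d, as did 6 of 20 pericentral genes, and 0 rose in either list. The periportal median was -0.11 at 28 d and -0.39 at 14 d, and the pericentral median -0.27 at 28 d and -0.30 at 14 d. The periportal count was 3 without replicate 1 or 7 at 40 mg/mL or replicate 3 at 0 mg/mL for 14 d and 4 without replicate 2 at 40 mg/mL. With the covariate 2 periportal and 0 pericentral genes fell, and without the 7 libraries of high scaling factor 2 and 1 did. Hsd17b6, a steroid dehydrogenase that acts on androgen metabolites, was called higher in dosed livers at 28 d than at 14 d (1.34, adjusted p = 0.00503), between 0.42 ± 0.26 at 28 d and -0.87 ± 0.28 at 14 d (adjusted p = 0.0412). The 14 d call of Hsd17b6 ended without replicate 1, 2, 7, 8 or 9 at 40 mg/mL or replicate 3, 7, 8 or 9 at 0 mg/mL (-0.89 to -0.77, highest adjusted p 0.122).

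**Figure D3:**
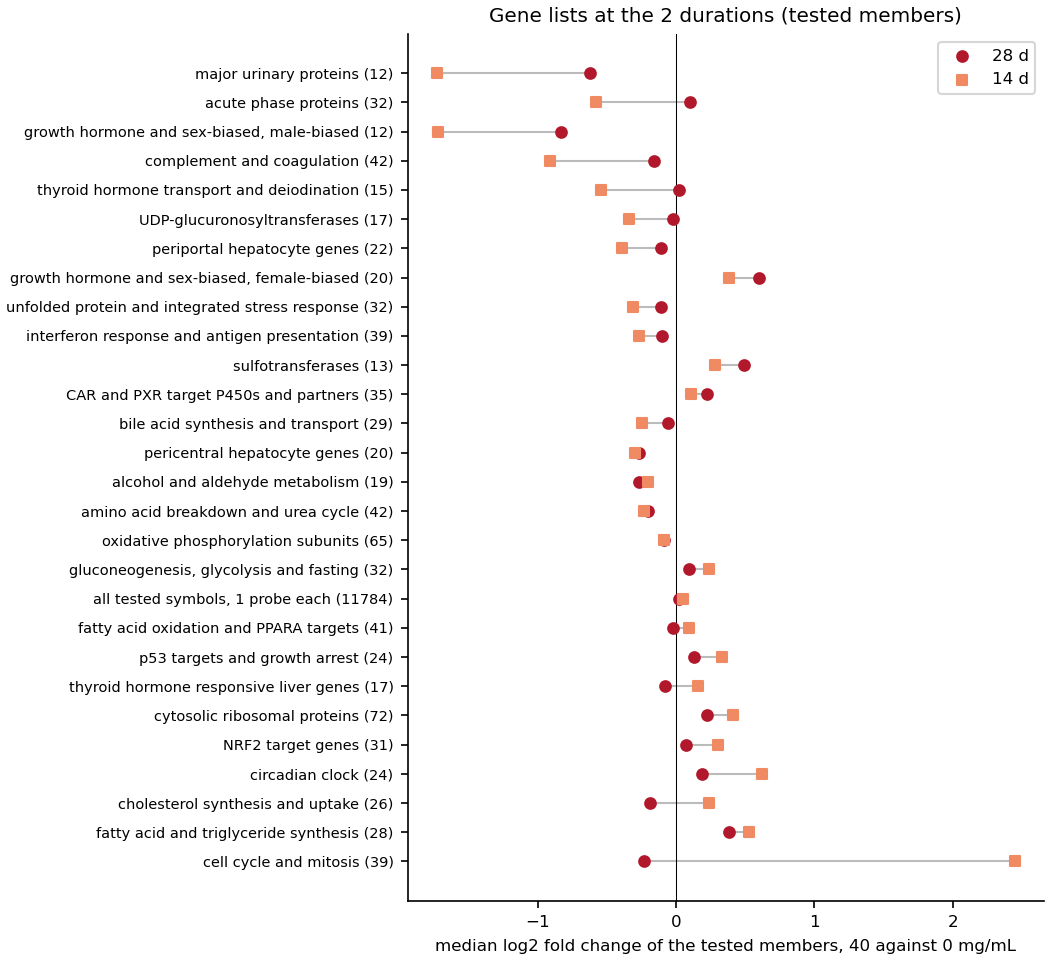
Median log2 fold change at 40 against 0 mg/mL over the tested members of each gene list (number in brackets), as a circle for 28 d and a square for 14 d joined by a line, and over all tested symbols. The cell cycle list lies at -0.23 at 28 d and 2.45 at 14 d, the complement, urinary protein and thyroid transport lists lie closer to 0 at 28 d, and fatty acid synthesis (0.38 and 0.53) and the male-biased list (-0.83 and -1.72) stay on 1 side of 0.

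A smaller group of genes had changes of like size at both durations, although only the 14 d one was called in this test. Cyp2a22, a cytochrome P450 gene, was at 14, 29.5 and 58.3 CPM at 40 mg/mL for 28 d and 4.86, 9.09 and 16.5 CPM at 0 mg/mL for 28 d. It was at 15.8, 31.4 and 60.1 CPM at 40 mg/mL for 14 d and 4.69, 6.09 and 15.7 CPM at 0 mg/mL for 14 d. Dosed livers lay above every control in 8 of 9 animals at 28 d and 8 of 8 at 14 d. The change was 1.62 ± 0.34 at 28 d (adjusted p = 0.0641) and 1.98 ± 0.35 at 14 d (adjusted p = 0.000207), with a difference of -0.36 (-1.33 to 0.61). Both durations were called in 6 of the 11 alternative settings.

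Elovl3, an elongase of very long chain fatty acids with male-biased expression, was low at both durations. It was at 7.37, 11.6 and 24.8 CPM at 40 mg/mL for 28 d and 32.6, 44.1 and 93.9 CPM at 0 mg/mL for 28 d, and at 4.81, 9.99 and 26.8 CPM at 40 mg/mL for 14 d and 10.9, 37.8 and 91.5 CPM at 0 mg/mL for 14 d. All 9 dosed livers lay below every control at 28 d and 5 of 8 did at 14 d. The change was -2.04 ± 0.44 at 28 d (adjusted p = 0.0641) and -1.77 ± 0.46 at 14 d (adjusted p = 0.0108), and the difference was -0.28 (-1.51 to 0.96). Oat, the ornithine aminotransferase of mitochondria, was at 74.4, 125 and 376 CPM at 40 mg/mL for 28 d and 346, 453 and 588 CPM at 0 mg/mL for 28 d. The Oat groups overlapped by 1 dosed animal at 28 d, and its change was -1.16 ± 0.26 at 28 d (adjusted p = 0.0736) and -0.87 ± 0.27 at 14 d (adjusted p = 0.0364). The 14 d call of Oat ended without replicate 1, 3, 4 or 7 at 40 mg/mL or replicate 1, 3 or 4 at 0 mg/mL (-0.87 to -0.73, highest adjusted p 0.11). Elovl3 was called at both durations in 4 of 11 alternatives and Oat in 3.

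Lepr, the leptin receptor, was at 15.1, 24 and 79.7 CPM at 40 mg/mL for 28 d and 4.96, 8.32 and 19.4 CPM at 0 mg/mL for 28 d, and at 10.1, 25.9 and 71.3 CPM at 40 mg/mL for 14 d and 3.84, 10 and 16.3 CPM at 0 mg/mL for 14 d. Medians of the dosed groups nearly coincided, with 8 of 9 dosed livers above every control at 28 d and 6 of 8 at 14 d. The changes were 1.84 ± 0.50 at 28 d (adjusted p = 0.224) and 1.69 ± 0.51 at 14 d (adjusted p = 0.0304). Leaving out replicate 3 or 9 at 40 mg/mL or replicate 2, 3 or 8 at 0 mg/mL ended the 14 d call (1.40 to 1.64, highest adjusted p 0.101). Npr2, a natriuretic peptide receptor, changed less but evenly, -0.56 ± 0.14 at 28 d (adjusted p = 0.138, 9 of 9 dosed livers below every control) and -0.65 ± 0.14 at 14 d (adjusted p = 0.00193). For these genes the interval of the difference includes 0, which leaves room for a moderate change in either direction: -1.24 to 1.56 for Lepr and -0.30 to 0.49 for Npr2.

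Genes of fatty acid and triglyceride synthesis were on the high side at both durations. Of 28 tested, 10 rose and 2 fell (Elovl3 and Dgat1) at 14 d, and 0 passed at 28 d. All 12 kept their sign at 28 d and 7 kept at least 50% of the change, and the list medians were 0.38 at 28 d and 0.53 at 14 d. Pnpla3, a lipase of lipid droplets whose gene responds to carbohydrate feeding, was at 7.11, 58 and 593 CPM at 40 mg/mL for 28 d and 4.93, 11.9 and 49.7 CPM at 0 mg/mL for 28 d. It was at 8.67, 67.9 and 230 CPM at 40 mg/mL for 14 d and 1.72, 13.7 and 22.3 CPM at 0 mg/mL for 14 d. In each duration 6 dosed livers lay above every control and the rest overlapped them, with changes of 2.95 ± 0.70 at 28 d (adjusted p = 0.107) and 2.82 ± 0.71 at 14 d (adjusted p = 0.00851). Fasn, fatty acid synthase, gave 0.96 ± 0.38 at 28 d (adjusted p = 0.648, 4 of 9 dosed livers above every control) and 1.67 ± 0.39 at 14 d (adjusted p = 0.00477, 7 of 8). Its difference of -0.71 has an interval of -1.79 to 0.37. Of the list, 6 rose without replicate 3 at 40 mg/mL for 14 d, and 1 fell without replicate 1 or 8 of that group.

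Of 35 targets of CAR and PXR tested, 3 rose (Cyp2b10, Gadd45b and Gstm1) and 2 fell (Cyp2c54 and Cyp3a41a) at 14 d, where 2.84% of all probes rose and 3.68% fell. The list median was 0.22 at 28 d and 0.11 at 14 d. Without any single 14 d library the count of 2 that fell was 0 or 1, except 4 without replicate 9 at 40 mg/mL, and with the covariate 6 rose and 0 fell. Cyp2b10, the P450 most used as a CAR marker in mouse liver, was at 24.7, 338 and 1200 CPM at 40 mg/mL for 28 d and 23.7, 51.5 and 95.2 CPM at 0 mg/mL for 28 d. It was at 20.3, 136 and 6420 CPM at 40 mg/mL for 14 d and 31.6, 54.6 and 101 CPM at 0 mg/mL for 14 d. Some dosed livers stayed within the controls at both durations, and 5 of 9 at 28 d and 4 of 8 at 14 d lay above them. The change was 2.83 ± 0.76 at 28 d (adjusted p = 0.221) and 4.09 ± 0.81 at 14 d (adjusted p = 0.000796), and the interval of the difference, -3.31 to 0.77, is wide. Replicate 9 at 14 d held the 6420 CPM, and without it the 14 d change was 2.32 (adjusted p = 0.0343). Cyp2c29, another CAR target, was at 718, 3980 and 6490 CPM at 40 mg/mL for 28 d and 404, 1350 and 1910 CPM at 0 mg/mL for 28 d, with values of 1.34 ± 0.39 at 28 d (adjusted p = 0.33) and 1.15 ± 0.40 at 14 d (adjusted p = 0.0722).

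Of 29 bile acid genes tested, 1 rose (the efflux pump gene Abcc4) and 7 fell at 14 d. Without replicate 1 at 40 mg/mL for 14 d 4 fell, without replicate 9 of that group 0 rose, and 2 fell with the covariate and 1 without the 7 libraries of high scaling factor. Cyp8b1, the sterol hydroxylase that sets the share of cholic acid, was at 116, 263 and 444 CPM at 40 mg/mL for 28 d and 243, 521 and 658 CPM at 0 mg/mL for 28 d. It was at 119, 268 and 395 CPM at 40 mg/mL for 14 d and 385, 529 and 629 CPM at 0 mg/mL for 14 d. The dosed groups matched closely between durations, and Cyp8b1 gave -0.90 ± 0.26 at 28 d (adjusted p = 0.264) and -0.94 ± 0.27 at 14 d (adjusted p = 0.0209). The 14 d call of Cyp8b1 ended without replicate 1, 2 or 8 at 40 mg/mL (-0.89 to -0.83, highest adjusted p 0.0618). Slc10a1, the basolateral bile acid importer that also carries thyroid hormone, differed more between durations, 0.12 ± 0.16 at 28 d and -0.53 ± 0.17 at 14 d (adjusted p = 0.0369). Its call ended without replicate 1, 2, 7 or 8 at 40 mg/mL or replicate 1, 8 or 9 at 0 mg/mL (-0.53 to -0.46, highest adjusted p 0.123).

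Ribosomal protein genes had small positive changes at both durations, called at 14 d. Of 72 tested, 41 rose at 14 d and 0 fell, all 41 had a positive value at 28 d, and 19 kept at least 50% of the change. Medians were 0.22 at 28 d and 0.41 at 14 d. Rpl26 was at 36.7, 42.4 and 51.8 CPM at 40 mg/mL for 28 d and 22.5, 31.8 and 37.5 CPM at 0 mg/mL for 28 d, and at 30.2, 39.3 and 50.1 CPM at 40 mg/mL for 14 d and 23.6, 30.2 and 34.4 CPM at 0 mg/mL for 14 d. At 28 d 8 of 9 dosed livers lay above every control, and at 14 d 4 of 8 did. The change was 0.48 ± 0.11 at 28 d (adjusted p = 0.0641) and 0.37 ± 0.11 at 14 d (adjusted p = 0.0236). The 14 d call ended without replicate 1, 7, 8 or 9 at 40 mg/mL or replicate 4 at 0 mg/mL (0.32 to 0.34, highest adjusted p 0.0919). Rps24 leaned the other way, 0.23 ± 0.10 at 28 d and 0.58 ± 0.10 at 14 d (adjusted p = 0.000137). The list count at 14 d was 25, 26 and 27 without replicates 1, 7 and 8 at 40 mg/mL for 14 d, 1 without the 7 libraries of high scaling factor, 15 without the 3 libraries named for the cell cycle sums, 11 with the covariate and 0 with the library under 100000 counts kept, while limma called 12 of the 72 at 28 d. Ribosomal protein genes have many processed pseudogenes, so their counts carry that uncertainty.

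Serpina7, which encodes thyroxine-binding globulin, was the only probe called at 28 d and its change was larger there than at 14 d. It was at 51.6, 288 and 1340 CPM at 40 mg/mL for 28 d and 14.2, 21.2 and 64.2 CPM at 0 mg/mL for 28 d. At 14 d it was at 22.3, 91.2 and 187 CPM at 40 mg/mL and 18.6, 26.7 and 70.9 CPM at 0 mg/mL. At 28 d 8 of 9 dosed livers lay above every control, and at 14 d 5 of 8 did. The log2 change was 4.04 ± 0.75 at 28 d (16.5-fold, adjusted p = 0.0166) and 1.38 ± 0.69 at 14 d (adjusted p = 0.259). The difference of 2.66 (0.72 to 4.60) had an unadjusted edgeR p of 0.00808 and an adjusted p of 0.52, and dosed livers at 28 d and at 14 d differed by 2.38 (adjusted p = 0.0742). The 28 d call held in 11 of 11 alternatives. Leaving out replicate 1, 2, 4, 7 or 8 at 0 mg/mL for 28 d ended it, with a highest adjusted p of 0.0656 and log2 changes of 3.98 to 4.04. A second Serpina7 probe gave 4.10 at 28 d (adjusted p = 0.0576).

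Some other genes leaned to the later time, and none of those named here was called at 28 d in the test as reported. Of the 100 probes of smallest p at 28 d, 32 had a change at least as large at 14 d. Lhpp, a phosphatase that acts on phosphohistidine, was at 13.7, 20.6 and 40.1 CPM at 40 mg/mL for 28 d and 31.9, 38.5 and 47.7 CPM at 0 mg/mL for 28 d. It was at 18.2, 34.7 and 44.3 CPM at 40 mg/mL for 14 d and 18.6, 30.5 and 48.2 CPM at 0 mg/mL for 14 d. At 28 d 7 of 9 dosed livers lay below every control, whereas at 14 d the groups covered the same range. The values were -0.74 ± 0.17 at 28 d (adjusted p = 0.0736) and 0.02 ± 0.17 at 14 d, with an interval of -1.23 to -0.28 for the difference. Lhpp was called at 28 d in 4 of the 11 alternative settings. Slc5a1, the sodium-coupled glucose transporter SGLT1, was at 2.71, 8.91 and 18.5 CPM at 40 mg/mL for 28 d and 0.979, 4.07 and 5.86 CPM at 0 mg/mL for 28 d, and gave 1.27 ± 0.32 at 28 d (adjusted p = 0.143) and 0.24 ± 0.32 at 14 d. Fgf21, a hepatic hormone of fasting and metabolic stress, was at 0.305, 15.2 and 162 CPM at 40 mg/mL for 28 d and 0.245, 3.66 and 8.32 CPM at 0 mg/mL for 28 d, with 5 of 9 dosed livers above every control. Its 28 d value of 2.95 ± 0.76 (adjusted p = 0.163) was 1.98 without replicate 3 at 40 mg/mL for 28 d, and the difference of 1.27 was then 0.30.

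**Figure D4:**
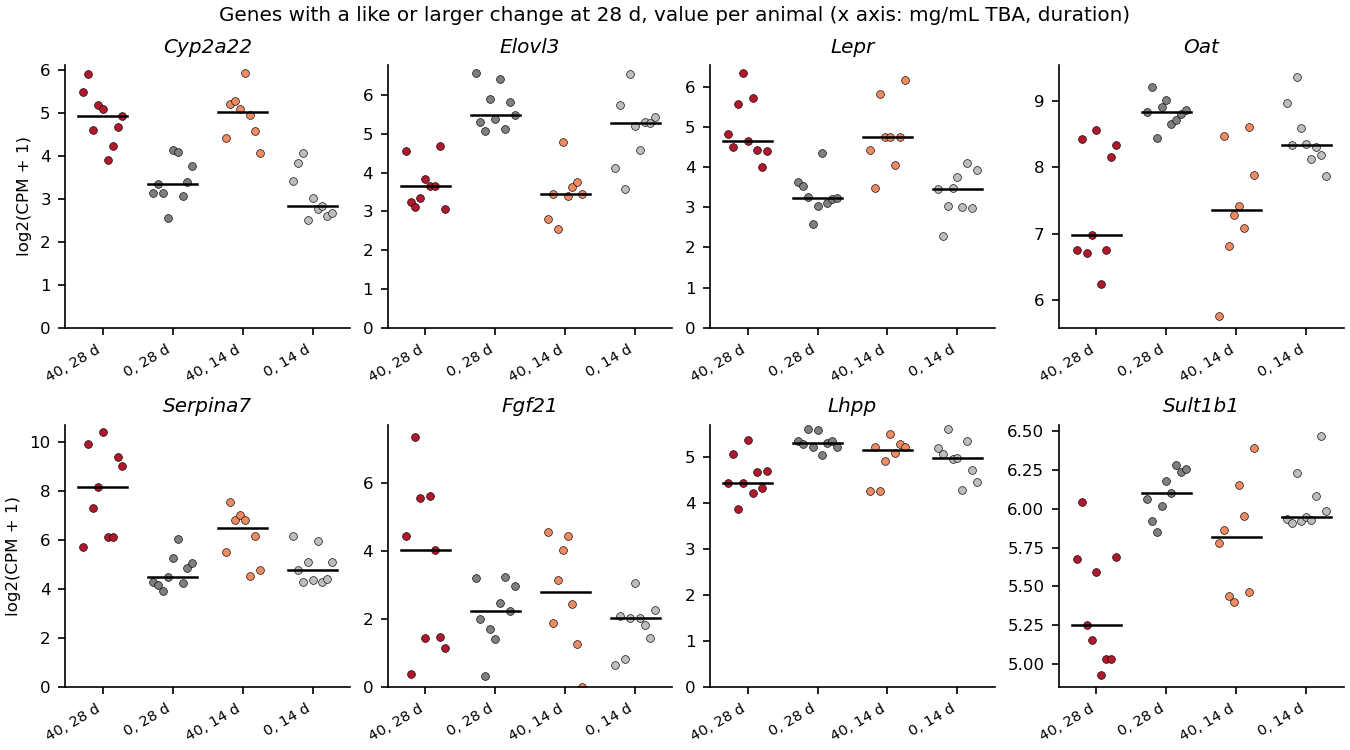
log2(CPM + 1) of 8 genes whose change at 28 d was of like or larger size than at 14 d, 1 point per animal, with the groups at 40 and 0 mg/mL for 28 d and then at 40 and 0 mg/mL for 14 d from left to right and a bar at each median. Serpina7 had medians of 288 and 21.2 CPM at 28 d and 91.2 and 26.7 CPM at 14 d, and Elovl3 had 11.6 and 44.1 CPM at 28 d and 9.99 and 37.8 CPM at 14 d.

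Apart from Serpina7, genes that carry, take up or convert thyroid hormone had lower values at 14 d than at 28 d, with no difference called. Of 15 tested, 0 rose and 5 fell at 14 d, and 1 (Serpina7) rose at 28 d. The medians were 0.02 at 28 d and -0.54 at 14 d, and all 15 differences were positive, 4 of them at an unadjusted p below 0.05. Transthyretin (Ttr) was at 2260, 4450 and 5630 CPM at 40 mg/mL for 28 d and 1660, 4240 and 4960 CPM at 0 mg/mL for 28 d. It was at 1640, 2310 and 5660 CPM at 40 mg/mL for 14 d and 4120, 4730 and 6260 CPM at 0 mg/mL for 14 d. At 14 d 6 of 8 dosed livers lay below every control, and at 28 d the ranges overlapped. The lowest 28 d control for Ttr, at 1660 CPM, was replicate 3, a library of high scaling factor that stood apart from the other controls. Ttr gave 0.02 ± 0.19 at 28 d and -0.64 ± 0.20 at 14 d (adjusted p = 0.0352), and Alb 0.11 ± 0.22 at 28 d and -0.72 ± 0.22 at 14 d (adjusted p = 0.0368). These 14 d calls were fragile: that of Ttr ended without replicate 1, 2, 7, 8 or 9 at 40 mg/mL or replicate 1, 4 or 8 at 0 mg/mL (-0.63 to -0.55, highest adjusted p 0.12), and that of Alb without replicate 1, 2, 7, 8 or 9 at 40 mg/mL or replicate 1, 2, 4, 8 or 9 at 0 mg/mL (-0.71 to -0.60, highest adjusted p 0.118). Slco1a1, an organic anion transporter that takes up thyroid hormone, gave -0.82 ± 0.54 at 28 d and -2.10 ± 0.59 at 14 d (adjusted p = 0.0196), a call that ended without replicate 1, 7 or 8 at 40 mg/mL (-2.01 to -1.91, highest adjusted p 0.0568). Slc10a1 also fell. Dio1, the deiodinase that converts thyroxine, had like values, -0.56 ± 0.27 at 28 d and -0.71 ± 0.28 at 14 d, neither called. The list's median difference was -0.01 with the scaling factor as a covariate, against 0.46 without it, and 2 members were then called at 14 d, both higher. The count of 5 that fell was 0 without replicate 1, 7 or 8, 1 without replicate 2, 2 without replicate 9 and 8 without replicate 6 at 40 mg/mL for 14 d. It was 2 without replicate 1 or 8 and 3 without replicate 4 or 9 at 0 mg/mL for 14 d, and 0 without the 7 libraries of high scaling factor.

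Conjugating enzymes gave no common rise at 28 d. Of 17 glucuronosyltransferase genes, 1 rose and 5 fell at 14 d and 0 passed at 28 d, with medians of -0.02 at 28 d and -0.34 at 14 d. Ugt1a1, which glucuronidates bilirubin and thyroxine, was at 1060, 2700 and 3620 CPM at 40 mg/mL for 28 d and 965, 3010 and 3830 CPM at 0 mg/mL for 28 d. It was at 382, 1450 and 2590 CPM at 40 mg/mL for 14 d and 2340, 2740 and 3280 CPM at 0 mg/mL for 14 d. At 14 d 6 of 8 dosed livers lay below every control and at 28 d none did. The lowest 28 d control, at 965 CPM, was replicate 3, a library of high scaling factor that stood apart from the other controls. The Ugt1a1 changes were -0.15 ± 0.24 at 28 d and -0.93 ± 0.25 at 14 d (adjusted p = 0.0151). The call ended without replicate 1 or 7 at 40 mg/mL (-0.78 and -0.79, adjusted p = 0.0586 each). Ugt2b1, Ugt2b36, Ugt2b38 and Ugt2a3 also fell at 14 d, and Ugt1a8 rose. The count of 5 that fell was 2 without replicate 1 and 3 without replicate 7 at 40 mg/mL for 14 d, and 0 with the covariate or without the 7 libraries of high scaling factor. The Ugt1a genes share their last exons, so their probes may read more than 1 of them. Of 13 sulfotransferase genes 1 rose at 14 d, where 2.84% of all probes rose: the estrogen sulfotransferase Sult1e1 (4.91 ± 1.32, adjusted p = 0.0142). It was at 143 CPM in replicate 9 at 40 mg/mL and at most 6.27 CPM in the other dosed livers, against at most 2.28 CPM in 14 d controls, and without that replicate its value was 1.09 (adjusted p = 0.719). Sult1b1, which sulfates thyroid hormone, was at 29.4, 37 and 64.9 CPM at 40 mg/mL for 28 d and 56.7, 67.6 and 76.8 CPM at 0 mg/mL for 28 d, with 8 of 9 dosed livers below every control. Its values were -0.70 ± 0.18 at 28 d (adjusted p = 0.143) and -0.22 ± 0.18 at 14 d, and the interval of the difference was -0.99 to 0.03. Of 17 thyroid hormone responsive liver genes 4 rose (Thrsp, Me1, Fasn and Acaca, all of lipid synthesis) at 14 d, with medians of -0.08 at 28 d and 0.16 at 14 d.

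Some NRF2 target genes rose at 14 d, and none of them passed at 28 d. Of 31 NRF2 targets, the antioxidant and detoxification genes under that factor, 7 rose at 14 d and 3 were lower at 28 d than at 14 d within dosed livers. The count of 7 was 3 without the 7 libraries of high scaling factor. The count of 3 was 1 without replicate 1, 7, 8 or 9 and 5 without replicate 4 of the 14 d group, and 1 without replicate 2, 3, 5 or 9 of the 28 d group. Ftl1, the ferritin light chain that stores iron, was at 450, 548 and 909 CPM at 40 mg/mL for 28 d and 502, 590 and 672 CPM at 0 mg/mL for 28 d, and at 597, 733 and 1300 CPM at 40 mg/mL for 14 d and 504, 562 and 577 CPM at 0 mg/mL for 14 d. All 8 dosed livers lay above every control at 14 d, and 3 of 9 did at 28 d. The change was 0.07 ± 0.13 at 28 d and 0.64 ± 0.14 at 14 d (adjusted p = 0.0016), and within dosed livers the 28 d level was lower than at 14 d, by a log2 change of -0.52 (adjusted p = 0.0283). That call ended without replicate 1, 3, 7 or 8 of the 14 d group or replicate 2, 3, 5 or 9 of the 28 d group (-0.53 to -0.41, highest adjusted p 0.138). Akr1b10, an aldo-keto reductase that reduces aldehydes, was at 9.4, 11.4 and 19.4 CPM at 40 mg/mL for 14 d, above all 14 d controls (3.06, 6.92 and 8.68 CPM). It gave 0.03 ± 0.19 at 28 d and 0.98 ± 0.19 at 14 d (adjusted p = 0.00052). Of 26 cholesterol synthesis and uptake genes 2 rose (the synthesis enzymes Lss and Mvd) and 1 fell (Ebp) at 14 d (2.84% and 3.68% over all probes), with medians of -0.19 at 28 d and 0.24 at 14 d. These few calls rest on single animals: 0 rose without replicate 1 or 9 at 40 mg/mL for 14 d, 1 rose without replicate 8 of that group or replicate 1, 3, 4, 5, 7 or 9 at 0 mg/mL, and 0 fell without replicate 1 or 8 at 40 mg/mL or replicate 1 at 0 mg/mL. Of 65 oxidative phosphorylation genes 1 was called at 14 d (Ndufa1, lower), with medians of -0.09 at both durations. That count was 0 without replicate 1 or 7 and 2 without replicate 3 or 4 at 40 mg/mL for 14 d, and with the covariate 8 rose and 1 fell.

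The dosed livers at 28 d differed from each other in the probes called at 14 d. For each 28 d liver the mean log2 level over the probes called at 14 d was taken relative to the 28 d controls. Over the 484 probes higher at 14 d the dosed livers scored 0.597 (replicate 6), 0.535 (replicate 7), 0.226 (replicate 1), 0.215 (replicate 8), 0.145 (replicate 4), 0.076 (replicate 3), 0.033 (replicate 9), -0.051 (replicate 2) and -0.097 (replicate 5). Over the 627 lower ones replicates 6 and 7 scored -0.697 and -0.848, and the other 7 lay between -0.294 and 0.052. Replicate 3 at 0 mg/mL, a control, scored 0.215 and -0.839, beside -0.114 to 0.09 and -0.048 to 0.218 in the other 8 controls. The most extreme scores of dosed livers sit in the libraries of high scaling factor, 1.35 and 1.40 in replicates 6 and 7. Control replicate 3, with a factor of 1.37, stood beside them in the second set only. In the first set its 0.215 equalled that of dosed replicate 8, which had a factor of 1.08. The part of the scaling factor in the scores was not tested. Among the other 28 d livers too, higher scaling factors went with higher scores in the first set and lower scores in the second. Leaving out control replicate 3 gave 8 called probes at 28 d in place of 1, and leaving out dosed replicate 5 gave 17. Without that control 1543 probes had an unadjusted edgeR p below 0.05 at 28 d and 875 for the difference, beside 1078 and 1081 with it.

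**Figure D5:**
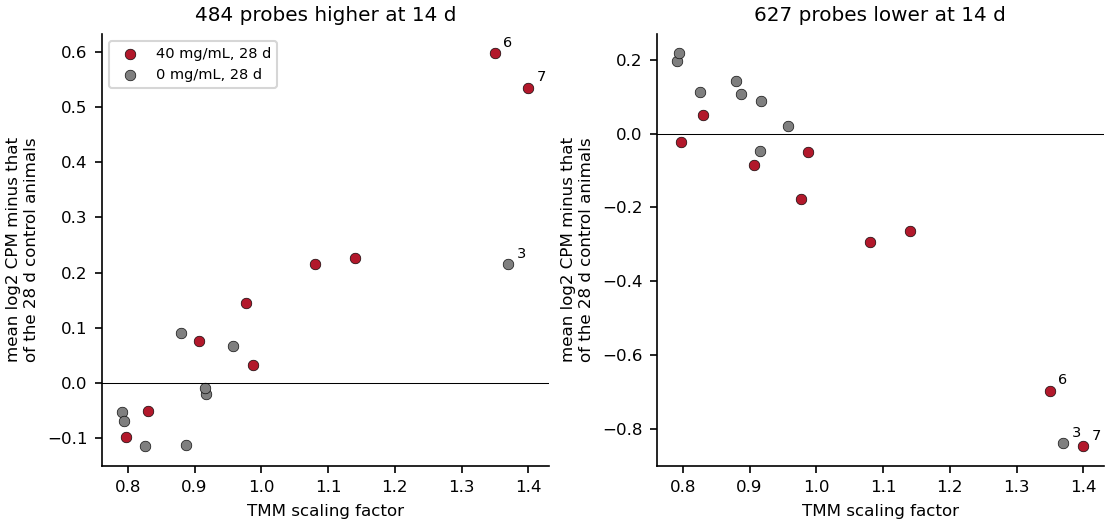
Mean log2 CPM of each 28 d liver minus that of the 28 d controls (y axis) over its TMM scaling factor (x axis), 1 point per animal at 40 mg/mL (red) and 0 mg/mL (grey), for the 484 probes higher (left) and the 627 lower (right) at 14 d. Dosed replicates 6 and 7 stand apart at 0.597 and 0.535 on the left and -0.697 and -0.848 on the right, where control replicate 3 stands beside them at -0.839.

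At the lower concentrations the same comparison of durations also called 0 probes in edgeR. At 20 mg/mL 537 probes had an unadjusted p below 0.05 for the difference (smallest adjusted p 0.999), and at 10 mg/mL 732 had (smallest adjusted p 1), against 1081 at 40 mg/mL. For Serpina7 the difference between durations was 2.66 at 40 mg/mL, -0.46 at 20 mg/mL and -2.04 at 10 mg/mL. The contrasts at the 3 concentrations share their control animals, so they are given side by side only.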

How the data were processed

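The authors deposited whole-number read counts per TempO-Seq probe for 72 liver libraries, neither scaled nor logged. The tools that the submitters' processing notes name are bcl2fastq 2.20, which splits reads by library, and the aligner Bowtie. The aligner's version, the genome build and the counting tool are not given in the sources used here. Dose and duration came from the labels, each library is 1 animal, and replicates are numbered in the order listed. No batch, plate or pairing is labelled, so none was modelled.

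Libraries under 100000 counts were left out, which kept 71. The 8 group means were fitted together in edgeR 4.0.16 (R 4.3.3) with TMM scaling, filterByExpr (99.9% of counts in 17050 probes) and a robust quasi-likelihood test (common biological coefficient of variation 0.402). P-values were adjusted by Benjamini-Hochberg over all probes of a contrast at 0.05, and intervals are 95%. No pair of the 136 within-group library pairs was identical (smallest chi-square per degree of freedom 6.62). The probe with the highest mean count stands for a gene in lists. CPM are TMM-scaled. The steps were tested on simulated data. Alternatives were DESeq2 1.42.0, limma 3.58.1 with voom and quality weights, other scaling, filters, library sets and a scaling factor covariate.

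The comparison, the gene lists and the genes to be named were chosen with earlier results of these data known. The rule named genes past the interaction threshold whose mean reached 5 CPM, the first 3 of each list by the p of the difference and a set of thyroid and P450 genes. Since no probe passed the interaction, further list members called at 14 d were named where a count was small, and other genes were taken by the smallest p of the difference, by size at both durations or by the 28 d p, after their values were seen. Some list members are not reported here by name.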

Additional observations from a re-analysis of the deposited data

Results flagged for a closer look

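Values of 1 animal that stood far from the rest of its group, by a gap test, numbered 28 of 160 groups of values (17.5%). The limit of the test flags about 1 in 20 groups of normally distributed values. Here it was applied mostly to unlogged CPM, in part of genes chosen after their values were seen, so no excess over that rate is shown. The measures share animals, so they are not independent.

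Replicate 3 at 0 mg/mL for 28 d gave 8 of them: a scaling factor of 1.37, a share of 14.3% in the 20 most abundant probes, Ahsg at 863 CPM, Cyp2f2 at 90.5 CPM, Ugt1a1 at 965 CPM, Ttr at 1660 CPM, Slc10a1 at 243 CPM and a complement and coagulation sum of 14530 CPM, each the lowest of 9 apart from the scaling factor, which was the highest. Replicate 7 at 40 mg/mL for 14 d was the highest of 8 for Birc5 (79.8 CPM), Cdk1 (79.9 CPM), Ccna2 (137 CPM), Top2a (82.7 CPM) and the cell cycle sum (1609 CPM). Replicate 1 at 0 mg/mL for 14 d was the highest of 9 for Vtn (2070 CPM), Ahsg (3230 CPM), C8g (649 CPM) and Ttr (6260 CPM).

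Among the other dosed livers at 28 d, replicate 1 stood apart for Cdk1 (2.63 CPM), replicate 7 for Pnpla3 (593 CPM) and replicate 3 for Fgf21 (162 CPM). Among the 28 d controls, replicate 6 stood apart for Serpina7 (64.2 CPM) and Lepr (19.4 CPM), and replicate 8 for Fasn (107 CPM). Of the other dosed livers at 14 d, replicate 9 stood apart for Cyp2b10 (6420 CPM) and replicate 4 for Elovl3 (26.8 CPM). Of the other 14 d controls, replicate 4 was low for Rpl26 (23.6 CPM), replicate 5 high for Fgf21 (7.33 CPM) and replicate 8 high for the cell cycle sum (262 CPM). Causes were not tested.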

How the results depend on the processing

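The count for the difference between durations, and with it the counts of faded and of late changes, was 0 in all 11 alternatives and with each of 35 libraries left out. The count at 14 d, 1111 as reported, was 696 in limma, 555 with the scaling factor as covariate, 464 with the library under 100000 counts kept, 135 without the 7 libraries of high scaling factor, 339 without the 3 libraries that stood apart most (a setting chosen after seeing the data) and 584 to 1496 with single libraries left out. The count at 28 d, 1 as reported, was 16 in DESeq2, 218 in limma, 8 with a filter at a mean of 5 CPM, 10 with the 4 groups alone, 66 with the covariate, 5 with probes summed per symbol, 10 without the 3 libraries and 0 to 17 with single libraries left out. The count of changes called alike at both durations, 0 as reported, was 11 in DESeq2, 78 in limma, 6 at 5 CPM, 7 with the 4 groups alone, 29 with the covariate, 3 summed per symbol, 2 without the 3 libraries and 0 to 10 with single libraries left out. The count between 28 d and 14 d at 40 mg/mL, 253 as reported, was 405 in DESeq2, 13 in limma, 87 with the covariate, 128 with the shallow library kept, 4 without the 7 libraries of high scaling factor, 4 without the 3 libraries and 39 to 502 with single libraries left out. The cause was not tested. Whether a change was called at both durations thus depends on the test used. Sizes at 14 d moved as well. Over the 11 alternatives the 14 d log2 change ran from -0.82 to -0.07 for Ttr and from -1.11 to -0.09 for Ugt1a1. It ran from 0.14 to 3.06 for Top2a, from -1.43 to -0.74 for Ahsg and from -2.15 to -1.42 for Mup15. Genes of few counts, such as Birc5 with 0 CPM in some livers, were read from low levels. No paired analysis was possible because the animal numbers are unique and replicate numbers only follow the listing order.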
